A study of Mus musculus with 6 samples.

Results

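The genes described here are 10 chaperones, disulfide isomerases and transcription factors of the endoplasmic reticulum (ER) and its stress response: Hspa5, Hsp90b1, Calr, Canx, Pdia3, Pdia4, Pdia6, Xbp1, Atf4 and Ddit3. They were chosen by symbol, and all 10 were found among the 41388 Ensembl genes of the count files. The RNA-seq data came from 6 libraries, 3 of TICs (CD24+CD90+CD45- cells, called tumor-initiating cells) and 3 of the tumor cells outside that gate, called non-CD24+CD90+ cells. Both populations were sorted from mammary tumors of 12-week-old female FVB/N-TgN(MMTVPyVT)634Mul/J mice, in which the mouse mammary tumor virus promoter drives the polyoma middle T oncogene in mammary epithelium. Each library was made from 120 ng of RNA pooled from 4 cell sorts, so that mice were mixed before sequencing. The series text describes the comparison cells as lacking both markers, whereas the methods of the study collect every CD45- cell outside the double-positive gate, and the second description is used for the name of the group.

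Proteins that enter the secretory pathway are folded in the ER. BiP, the product of Hspa5, binds unfolded chains and holds the stress sensors IRE1, PERK and ATF6 inactive. When unfolded protein accumulates, these sensors start the unfolded protein response (UPR): IRE1 splices the mRNA of Xbp1, PERK favours translation of Atf4 and later induction of Ddit3, which encodes CHOP, and cleaved ATF6 induces chaperone genes. Secretory cells such as mammary epithelium and matrix-producing fibroblasts rely on this machinery.

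Of the 10 genes, 5 share a promoter element known from ER stress genes, so that its presence describes them and is no independent result. The ER stress response element (ERSE), which ATF6 binds together with NF-Y, reads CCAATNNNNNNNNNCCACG, and it was searched on both strands of RefSeq promoter windows of GRCm38.p6, each reaching from 250 bases before to 50 bases after a transcription start. All 10 genes had a window. An exact ERSE was present in 5 of them (Hspa5, Hsp90b1, Calr, Canx and Pdia6), against 0.119% of 32851 windows in all. The 6 elements are printed on the strand of the gene, with the paired ends of the element in capitals and 5 bases on either side. The paired ends are the letters that these 5 genes have in common. In the elements that read CGTGG before ATTGG, the ERSE lies on the opposite strand.
Hspa5, chr2:34772020-34772048, plus strand, element from 65 to 47 bases upstream: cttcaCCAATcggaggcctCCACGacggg
Hsp90b1, chr10:86705633-86705661, minus strand, from 212 to 194 bases upstream: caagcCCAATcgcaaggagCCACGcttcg
Hsp90b1, chr10:86705528-86705556, minus strand, from 107 to 89 bases upstream: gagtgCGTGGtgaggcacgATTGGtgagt
Calr, chr8:84847070-84847098, minus strand, from 162 to 144 bases upstream: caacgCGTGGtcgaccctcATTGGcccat
Canx, chr11:50325795-50325823, minus strand, from 145 to 127 bases upstream: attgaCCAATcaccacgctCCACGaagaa
Pdia6, chr12:17266486-17266514, plus strand, from 98 to 80 bases upstream: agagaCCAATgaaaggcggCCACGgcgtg

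With 1 mismatch allowed in the second end of the element, 8 of the 10 windows matched, against 0.998% of all windows. Pdia3, Pdia4 and Ddit3 then joined the others, while Xbp1 and Atf4 still had no match. The first end alone, CCAAT, was in 9 of the 10 windows and in 37.4% of all windows. The letters TGACGTG, the core of the UPR element bound by XBP1 and ATF6, were found in the window of Hspa5 alone among the 10 genes, and in 2.01% of all windows. Distances are from the RefSeq start. The Hspa5 gene of GENCODE M21 begins farther upstream, and its span holds the Hspa5 element. These matches describe the letters in a window and not a bound site.

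The total count per library ranged from 6781239 to 9100552, and every one of the 10 genes had counts in all 6 libraries, from 40 to 14835. A total of 3 counts in a library equals 0.33 to 0.442 CPM (counts scaled to a common library size, here by total count alone), a limit of counting error only. The epithelial markers Epcam, Krt8 and Krt18 were detected in all 6 libraries. Of the genes for the sorted surface proteins, Thy1, which encodes CD90, had 75.9, 56.7 and 21.6 CPM in non-CD24+CD90+ cells and 90.7, 207 and 70.3 CPM in TICs. Cd24a had 402, 405 and 602 CPM against 440, 315 and 356 CPM. The groups overlapped in both genes and neither passed the test, so that these RNA levels do not separate the sorted populations. Transcripts of CD45 (Ptprc) were counted 33 times in replicate 1 of the non-CD24+CD90+ cells and not in the other 5 libraries. Summed CPM of 8 leukocyte markers overlapped, at 16.7 to 35.6 in non-CD24+CD90+ cells and 32.1 to 90.1 in TICs. Of these 8, 3 were tested, and only Lyz2, a gene of myeloid cells, had a positive log2 fold change. Lyz2 was called, with 9.63, 11.8 and 4.29 CPM against 62.0, 75.3 and 28.0 CPM in TICs. The other genes tested were Cd68 and Csf1r. Cd68 had 11.1, 17.6 and 3.72 CPM against 16.6, 5.36 and 4.09 CPM in TICs. For Csf1r the values were 0, 6.24 and 8.73 CPM against 4.62, 0 and 0 CPM. Summed CPM of 8 fibroblast markers ranged from 2794 to 3214 in non-CD24+CD90+ cells and from 7423 to 10789 in TICs. Of the 8, 4 passed the test as higher in TICs, against 1.36% of all genes tested. For 8 pericyte or smooth muscle markers the sums ranged from 584 to 769 and from 1029 to 1596, and for 8 endothelial markers from 138 to 142 and from 174 to 614. In these lists 1 pericyte or smooth muscle marker and 0 endothelial markers passed the test as higher in TICs. Sums of 6 basal or myoepithelial markers overlapped, at 797 to 1322 in non-CD24+CD90+ cells and 638 to 1034 in TICs. Summed luminal epithelial markers were lower in TICs, at 3632 to 4249 against 5564 to 5931 CPM, although 0 of these 8 passed the test. In TICs, Malat1 took 1.77% to 4.1% of the counts and mitochondrially encoded genes took 3.21% to 5.01%, against 0.658% to 1.38% and 1.93% to 2.91% in non-CD24+CD90+ cells. In such sorted mixtures, fewer cells of a type and less RNA per cell cannot be told apart.

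In edgeR's exactTest, with p-values adjusted by the Benjamini-Hochberg method and a threshold of 0.1, 0 of the 10 genes passed. The same threshold was passed by 1.55% of the 12192 genes tested (1.36% higher and 0.189% lower in TICs), so that a count of 0 among 10 genes is near the background. With the unadjusted p-value below 0.05 there was 1 gene, Hsp90b1, against 7.85% of all genes. edgeR's quasi-likelihood test called 0 of the 10 genes (background 0.41%) and gave 1 unadjusted p-value below 0.05 (7.92%). DESeq2 likewise called 0 (background 2.51%), with 1 unadjusted p-value below 0.05 (9.24%). The log2 fold changes (TIC over non-CD24+CD90+ cells) ran from -0.43 for Xbp1 to 0.72 for Pdia4 and Ddit3, 6 of them positive and 4 negative, with a median of 0.06 against -0.01 over all genes tested. Their 95% intervals, taken from the negative binomial fit, lay inside a 2-fold change in either direction for 6 genes: Hspa5, Calr, Canx, Pdia3, Pdia6 and Atf4. The intervals of Hsp90b1, Pdia4, Xbp1 and Ddit3 reached beyond 2-fold. All intervals used a normal quantile and took the dispersion of a gene as known, so that with 3 libraries per group they can be too narrow. The upper end of Canx (0.98) and the lower end of Hsp90b1 (0.01) lay close to these limits of 2-fold and 0.

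**Figure D1:**
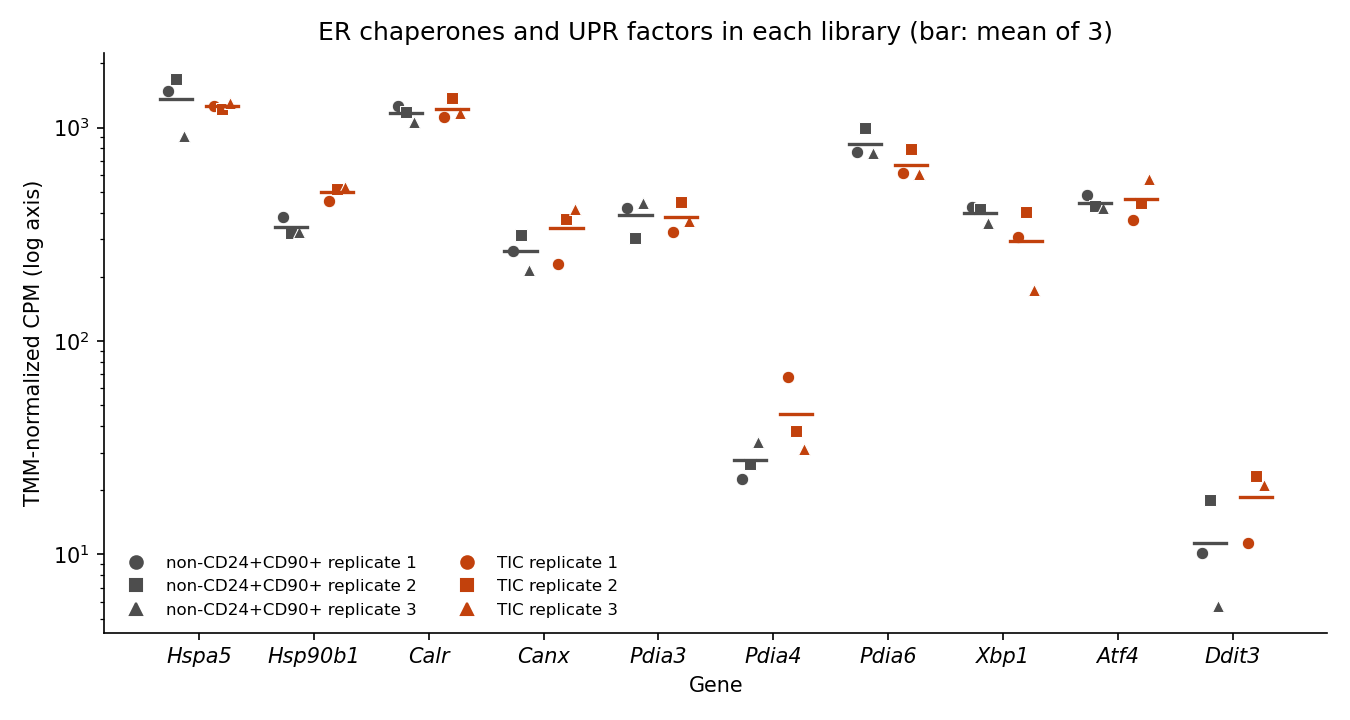
TMM-normalized CPM (log axis) of the 10 genes in each library, grey for non-CD24+CD90+ cells and orange for TICs, with marker shapes for replicates 1 to 3 and bars for the mean of 3. Hsp90b1 is the gene whose TIC libraries (452 to 525 CPM) all lie above the other group (319 to 382 CPM); in the other 9 genes the groups overlap.

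Together the 10 genes held 0.542%, 0.593% and 0.467% of the counts in the non-CD24+CD90+ libraries (replicates 1 to 3) and 0.475%, 0.56% and 0.484% of the counts of TICs. The groups overlapped in this share. Hspa5, Calr and Pdia6 supplied most of it in every library. Because longer transcripts give more fragments, levels of the 10 genes were compared with each other only as TPM, the counts divided by exonic length and scaled to the same sum in every library. The length joins all annotated exons of a gene and can exceed that of its main transcript, so that the order depends on this choice. Over the 6 libraries Calr had the highest median level, 1003 TPM, followed by Hspa5 with 733 TPM and Pdia6 with 492 TPM. Atf4 followed with 480, Pdia3 with 296, Xbp1 with 288, Hsp90b1 with 242 and Canx with 156 TPM. Pdia4 with 32.8 TPM and Ddit3 with 21.6 TPM were the lowest. Each gene's range over the 6 libraries overlapped that of the next gene in this order, with the exception of Canx and Pdia4, whose ranges (112 to 210 and 22.2 to 65.4 TPM) did not meet. Calr stood above 98.9% of all genes tested by this measure and Ddit3 above 62.7%.

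The BiP gene Hspa5 (ENSMUSG00000026864, chromosome 2 of GRCm38, 34771970 to 34777547) had 1490, 1683 and 910 CPM in non-CD24+CD90+ cells, replicates 1 to 3. In TICs it had 1260, 1220 and 1299 CPM. All 3 TIC libraries lay inside the range of the other group, which spanned 1.85-fold, whereas TICs spanned 1.06-fold. The mean was 1361 ± 403 CPM in non-CD24+CD90+ cells and 1260 ± 39.4 CPM in TICs (SD, n = 3). The log2 fold change was -0.11 (standard error, SE, 0.30, 95% interval -0.69 to 0.47; exactTest, adjusted p = 1). When replicate 2 of the non-CD24+CD90+ cells was left out it was 0.071, so that its sign rested on this library. The sign was the same in 12 of 13 alternatives.

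Hsp90b1 (ENSMUSG00000020048, chromosome 10, 86690209 to 86705509) encodes GRP94, the HSP90 of the ER, which folds integrins, Toll-like receptors and insulin-like growth factors. It had 382, 319 and 323 CPM in non-CD24+CD90+ cells and 452, 516 and 525 CPM in TICs. Every TIC library was above every library of the other group. It was the only one of the 10 genes without overlap, whereas 15.2% of all genes tested had no overlap in either direction and 7.69% were higher in TICs in this way. The log2 fold change was 0.54 (SE 0.27, 95% interval 0.01 to 1.08), a 1.46-fold difference in level. In exactTest its unadjusted p-value was 0.049 and its adjusted p-value 0.63. The adjusted p-value was 0.50 in the quasi-likelihood test and 0.16 in DESeq2, and over all 13 alternatives it ranged from 0.16 to 1 while the log2 fold change stayed between 0.48 and 0.64. The fibroblast, pericyte and endothelial marker sums given above moved in the same direction as Hsp90b1, and their part in this difference was not tested.

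**Figure D2:**
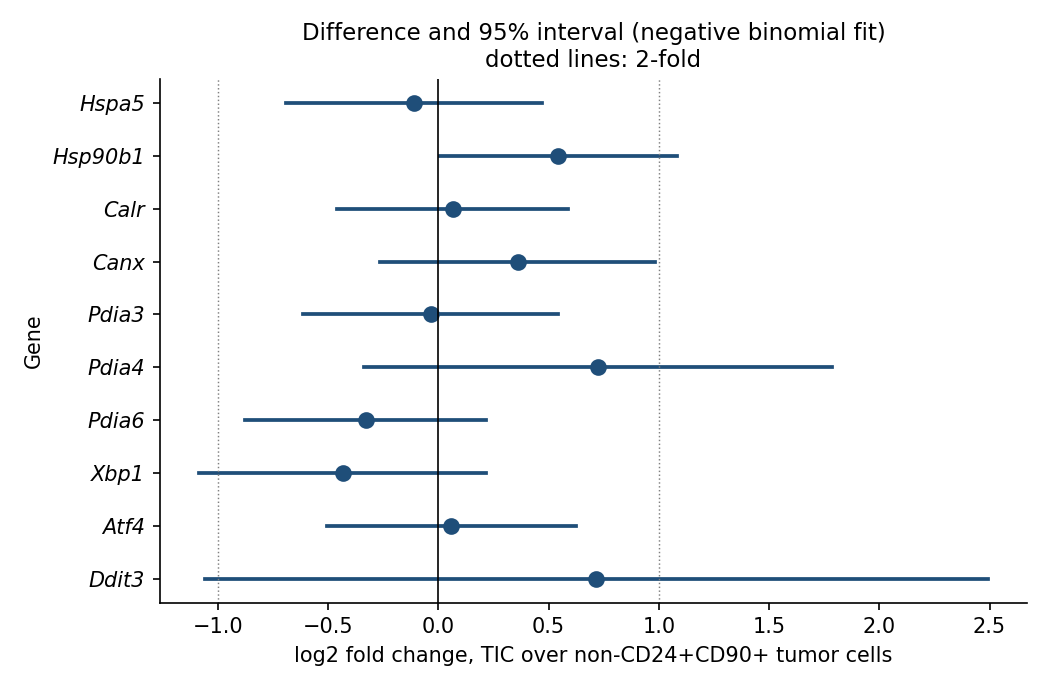
Log2 fold change of TICs over non-CD24+CD90+ cells (point) with its 95% interval from the negative binomial fit (line) for each of the 10 genes; dotted lines mark a 2-fold change. Intervals of 9 genes cross 0 and that of Hsp90b1 begins at 0.01, and the widest is that of Ddit3, from -1.06 to 2.49.

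Calreticulin and calnexin are the lectin chaperones that retain newly made glycoproteins until they are folded, the first soluble and the second anchored in the ER membrane. Calr (ENSMUSG00000003814, chromosome 8, 84841850 to 84846934) had 1265, 1184 and 1065 CPM in non-CD24+CD90+ cells and 1117, 1382 and 1175 CPM in TICs. The lowest and the highest of the 6 values differed by 1.30-fold, the narrowest spread of the 10 genes, and the groups overlapped. For Calr the log2 fold change was 0.06 (SE 0.27, 95% interval -0.46 to 0.59; exactTest, adjusted p = 1), an interval that reaches a 1.5-fold increase at most. Canx (ENSMUSG00000020368, chromosome 11, 50293961 to 50325673) had 263, 316 and 215 CPM in non-CD24+CD90+ cells and 230, 373 and 415 CPM in TICs. TIC replicates 2 and 3 were above all libraries of the other group, while TIC replicate 1 lay within them. Its log2 fold change was 0.36 (SE 0.32, 95% interval -0.26 to 0.98; exactTest, adjusted p = 0.99).

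Protein disulfide isomerases form and rearrange the disulfide bonds of secreted proteins. Pdia3, also known as ERp57, works on the glycoproteins that calnexin and calreticulin hold. Pdia3 (ENSMUSG00000027248, chromosome 2, 121413775 to 121438687) had 420, 305 and 442 CPM in non-CD24+CD90+ cells and 324, 450 and 365 CPM in TICs. The ranges of the groups nearly coincided, and the log2 fold change was -0.04 (SE 0.29, 95% interval -0.61 to 0.54; exactTest, adjusted p = 1).

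Pdia6, known as P5, is found in complexes with BiP. Pdia6 (ENSMUSG00000020571, chromosome 12, 17266545 to 17284770) had 768, 992 and 764 CPM in non-CD24+CD90+ cells and 611, 792 and 607 CPM in TICs. The groups overlapped, since TIC replicate 2 lay above the lower pair of the other group. TICs over non-CD24+CD90+ cells gave a log2 fold change of -0.33 (SE 0.28, 95% interval -0.88 to 0.22; exactTest, adjusted p = 0.98). An exon of Pdia6 overlaps Atp6v1c2 on the opposite strand, which had 660 to 1146 counts, and the strand setting of the counting was not given in the sources used here.

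Pdia4, known as ERp72, had the lowest TPM of the 3 isomerases. Pdia4 (ENSMUSG00000025823, chromosome 6, 47796141 to 47813430) had 22.6, 26.6 and 33.8 CPM in non-CD24+CD90+ cells, from 155 to 236 counts. In TICs it had 67.8, 37.9 and 31.3 CPM. TIC replicate 1 was the highest of the 6 libraries, and TIC replicate 3 was below the highest library of the other group. Its log2 fold change was 0.72, with an SE of 0.54, a 95% interval from -0.34 to 1.79 and an adjusted p-value of 0.95 in exactTest. Without TIC replicate 1 the log2 fold change was the lowest of all alternatives, 0.34, and without TIC replicate 3 the highest, 0.95.

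Xbp1 encodes the transcription factor that IRE1 activates by splicing its mRNA, and its targets include chaperones and degradation factors. Counts per gene do not separate the spliced from the unspliced form. Xbp1 (ENSMUSG00000020484, chromosome 11, 5520659 to 5525893) had 424, 414 and 355 CPM in non-CD24+CD90+ cells and 308, 401 and 173 CPM in TICs. TIC replicate 3 was the lowest of the 6 libraries, while TIC replicate 2 lay within the other group. The log2 fold change was -0.43 (SE 0.33, 95% interval -1.09 to 0.22; exactTest, adjusted p = 0.95). With 1 library left out it ranged from -0.72 without TIC replicate 2 to -0.14 without TIC replicate 3.

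Atf4 encodes the transcription factor of the PERK arm, which is controlled mainly at translation, a step that RNA counts do not measure. Atf4 (ENSMUSG00000042406, chromosome 15, 80255184 to 80257541) had 482, 428 and 420 CPM in non-CD24+CD90+ cells and 369, 442 and 574 CPM in TICs. TICs held both the lowest and the highest of the 6 values, and the log2 fold change was 0.06 (SE 0.29, 95% interval -0.51 to 0.62; exactTest, adjusted p = 1). Its sign changed when library size alone was used for scaling.

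Ddit3 encodes CHOP, the factor associated with cell death under lasting ER stress. Ddit3 (ENSMUSG00000025408, chromosome 10, 127290774 to 127296288) had 10.2, 17.9 and 5.72 CPM in non-CD24+CD90+ cells, from 70, 158 and 40 counts. In TICs it had 11.3, 23.3 and 21.1 CPM, from 103, 200 and 160 counts. TIC replicates 2 and 3 were the highest, TIC replicate 1 lay within the other group, and the 6 values spanned 4.08-fold. For Ddit3 the log2 fold change was 0.72 with an SE of 0.91 and a 95% interval from -1.06 to 2.49 (exactTest, adjusted p = 1). The log2 fold change ranged from 0.40 without replicate 3 to 1.22 without replicate 2 of the non-CD24+CD90+ cells. The interval for Ddit3 reached beyond 2-fold in both directions. An exon of Ddit3 overlaps Mars on the opposite strand, so that reads of the overlap could be lost or shared between the genes. Mars had 372, 332 and 312 counts in non-CD24+CD90+ cells and 791, 576 and 632 counts in TICs. Its part in the difference of Ddit3 was not tested.

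Ratios of counts between a pair of genes in the same library do not depend on scaling between libraries. The pairs were chosen after the levels had been seen, and the ratios are descriptions without a test. The ratio of Hsp90b1 to Hspa5 was 0.256, 0.19 and 0.355 in non-CD24+CD90+ cells and 0.359, 0.423 and 0.404 in TICs. The groups did not overlap, but replicate 3 of non-CD24+CD90+ cells and TIC replicate 1 were almost equal. The ratio of Pdia4 to Pdia6 was 0.029, 0.027 and 0.044 against 0.111, 0.048 and 0.052, again without overlap. Here too the groups lay close, at 0.044 in replicate 3 of non-CD24+CD90+ cells and 0.048 in TIC replicate 2. How often other pairs of genes show no overlap was not measured. For Canx to Calr, Ddit3 to Atf4 and Xbp1 to Atf4 the groups overlapped. The ratio of Xbp1 to Atf4 was 0.302 in TIC replicate 3 and between 0.836 and 0.968 in the other 5 libraries.

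**Figure D3:**
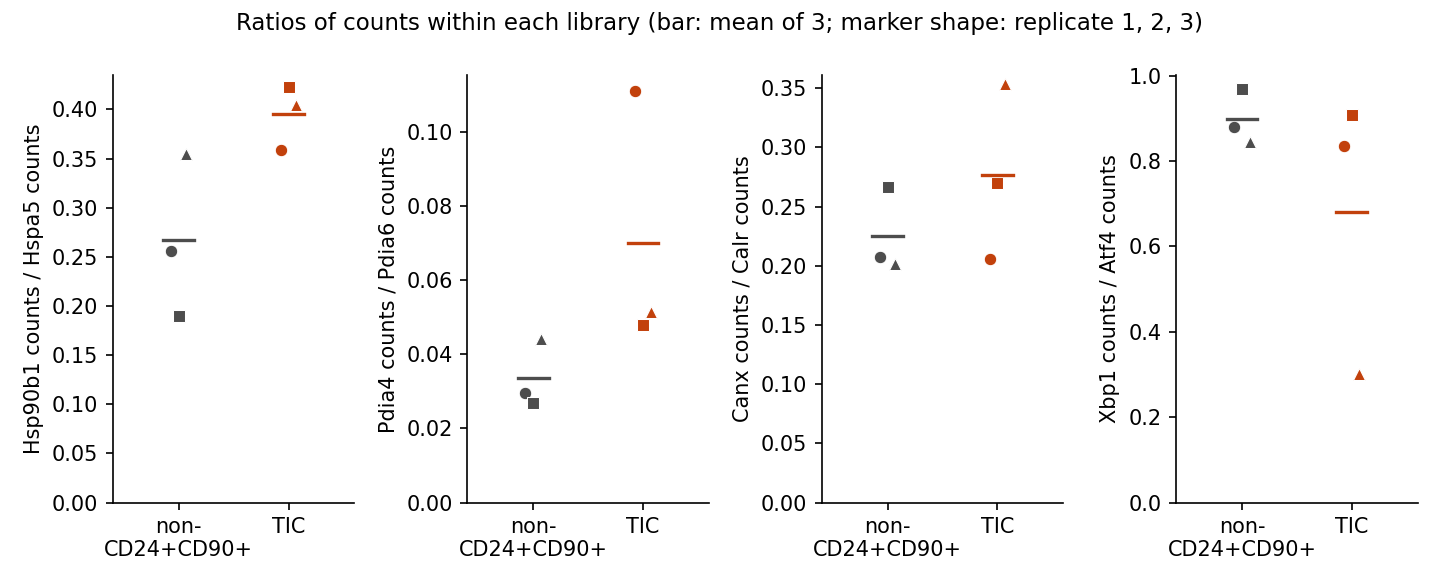
Ratios of the counts of 2 genes within each library, by group, with marker shapes for replicates 1 to 3 and bars for the mean of 3; each axis starts at 0. Hsp90b1 to Hspa5 and Pdia4 to Pdia6 show no overlap between groups, and TIC replicate 3 stands low for Xbp1 to Atf4 (0.302).

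The profile of Hspa5 over the 6 libraries was compared with those of 6774 genes of at least 20 CPM by the root mean square difference of log2 CPM after centring each gene. The closest were Nr2c2 (0.08), Pip5k1a (0.08) and Traf2 (0.09). Of the other 9 genes of the group, Calr was closest to Hspa5 (0.25) and Pdia4 farthest (0.65). The closest profiles to Ddit3 were those of Dip2a (0.11), Nlgn2 (0.17) and Smg1 (0.17), and among the group Canx was closest (0.39) and Xbp1 farthest (0.91). With 6 libraries such neighbours are only the nearest of many candidates.

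The wider pathway was followed in 7 lists that hold 137 further genes of ER folding, quality control and the UPR, of which 127 were tested. None of the 127 passed the adjusted threshold in exactTest, at the same background of 1.55%, and 8 had an unadjusted p-value below 0.05, 6 higher and 2 lower in TICs, against 7.85% of all genes. The quasi-likelihood test called 0 of them (background 0.41%), with 9 unadjusted p-values below 0.05 (7.92%). DESeq2 called 1 (background 2.51%), with 11 unadjusted p-values below 0.05 (9.24%). The log2 fold change was positive in 58 of the 127 genes, with a median of -0.03 against -0.01 over all genes. It lay within 2-fold in 91.3% of the 127 genes and in 76% of all genes tested. These shares were not matched for expression level, and its part in their difference was not tested. Every TIC library was above every library of the other group in 11 genes and below it in 12, at a background of 7.69% and 7.55%.

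**Figure D4:**
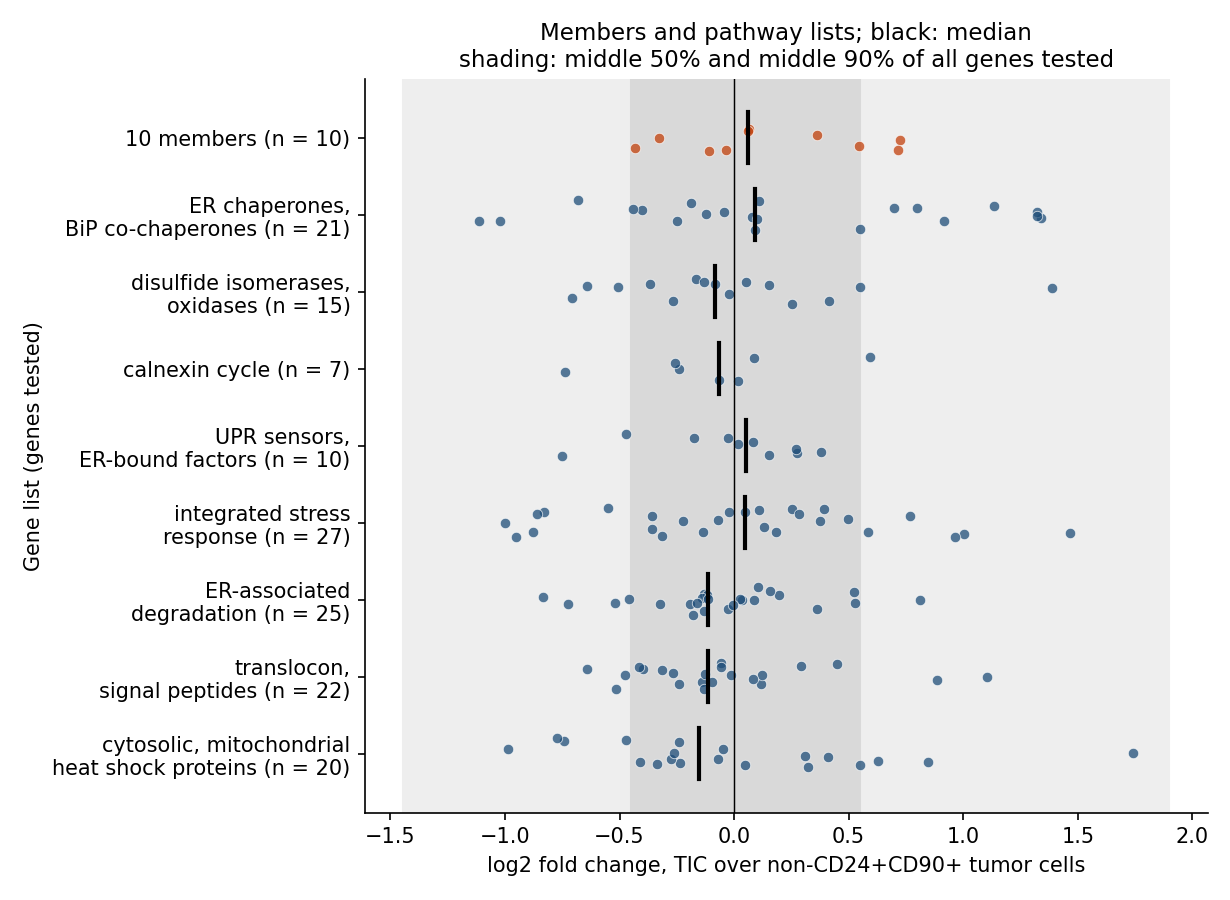
Log2 fold changes of TICs over non-CD24+CD90+ cells for the 10 genes, for the 7 lists of ER and UPR genes and for the comparison list of other heat shock proteins, 1 point per gene tested, with black bars for list medians and grey shading for the middle 50% and 90% of all genes tested. All 9 medians lie between -0.15 and 0.09, near 0.

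Among 21 tested co-chaperones of BiP and other ER chaperones, 0 passed the threshold, 12 had a positive log2 fold change and the median was 0.09. Fkbp10, a prolyl isomerase that assists collagen folding, came closest of all the pathway genes. It had 60.7, 63.0 and 47.5 CPM in non-CD24+CD90+ cells and 92.0, 166 and 118 CPM in TICs, so that the groups did not overlap. Its log2 fold change was 1.13 (SE 0.36, exactTest, adjusted p = 0.12), and over 13 alternatives the adjusted p-value ranged from 0.04 to 0.57. It passed the threshold in DESeq2 (0.081), with RLE size factors (0.099) and without TIC replicate 1 (0.04). Fkbp9, another ER prolyl isomerase, had 19.7 ± 2.48 CPM against 49.4 ± 4.35 CPM in TICs (SD, n = 3) and a log2 fold change of 1.32 (SE 0.53, exactTest, adjusted p = 0.35). The fibroblast marker sum moved with both genes, and its part was not tested. Dnajc3, the co-chaperone P58IPK, had 150, 174 and 140 CPM in non-CD24+CD90+ cells and 199, 256 and 297 CPM in TICs. Its log2 fold change was 0.70 (SE 0.30, exactTest, adjusted p = 0.43). Sec63, which recruits BiP to the translocon, had 239 ± 58.2 CPM and 201 ± 17.2 CPM in TICs, with a log2 fold change of -0.25.

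Of 15 other disulfide isomerases and oxidases tested, 0 passed the threshold, and the median log2 fold change was -0.08. P4hb, the classical protein disulfide isomerase and a subunit of collagen prolyl hydroxylase, had 318, 323 and 369 CPM in non-CD24+CD90+ cells and 483, 301 and 418 CPM in TICs, with overlap. Its log2 fold change was 0.25 (SE 0.29, exactTest, adjusted p = 1). Txndc5, an isomerase of the same family, had 17.5, 15.2 and 25.5 CPM against 36.6, 42.2 and 73.6 CPM in TICs, a log2 fold change of 1.39 (SE 0.55, exactTest, adjusted p = 0.36). Qsox1, a sulfhydryl oxidase, had a log2 fold change of -0.02 and the membrane-bound Tmx4 one of -0.64 (exactTest, adjusted p = 1 and 0.93). In the calnexin cycle, 0 of 7 tested genes passed the threshold. Uggt1, which marks unfolded glycoproteins for another round, had a log2 fold change of 0.60 (SE 0.37). Mogs, the glucosidase that trims the outermost glucose, had one of -0.74 (SE 0.39), and the groups overlapped in both. Ganab, a subunit of the other ER glucosidase, and Mcfd2, a cargo receptor subunit, had log2 fold changes of 0.02 and -0.26.

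Of 10 tested UPR sensors and ER-bound transcription factors, 0 passed the threshold and the median was 0.05. The IRE1 gene Ern1 had 7.99 ± 2.31 CPM in non-CD24+CD90+ cells and 10.4 ± 0.77 CPM in TICs, and the PERK gene Eif2ak3 had 6.06 ± 5.73 and 4.36 ± 2.03 CPM (SD, n = 3). Atf6 had 19.0 ± 4.83 and 23.0 ± 18.8 CPM, with 3.03 CPM in TIC replicate 2 and 40.4 CPM in TIC replicate 1. In Eif2ak3, replicate 3 of the non-CD24+CD90+ cells had 0 counts, and in Ern1 every TIC library lay above the other group. These 3 sensors were given for their role and not by the size of their difference. Mbtps1, the protease that cleaves ATF6, had a log2 fold change of 0.27 (SE 0.30), Creb3l2 one of -0.03 and Creb3l1 one of -0.75 (SE 0.51).

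The integrated stress response joins PERK to the other kinases of eIF2 and to the targets of ATF4 and CHOP. Of 27 tested genes of this list, 0 passed the threshold, 14 had a positive log2 fold change and the median was 0.05. Cebpb, a partner of both factors, and Nupr1, a stress-induced chromatin protein, were named for their CPM. Cebpb had 740 ± 107 CPM in non-CD24+CD90+ cells and 765 ± 143 CPM in TICs, and Nupr1 had 354 ± 13.5 and 388 ± 150 CPM (SD, n = 3). Ddit4, an inhibitor of mTORC1, had 45.2, 58.1 and 69.4 CPM against 29.2, 43.7 and 16.2 CPM in TICs, lower without overlap, with a log2 fold change of -0.95 (SE 0.51, exactTest, adjusted p = 0.71). Slc3a2, the heavy chain of amino acid transporters and an ATF4 target, had 28.6, 25.6 and 24.6 CPM against 34.3, 46.1 and 77.8 CPM, higher without overlap (exactTest, adjusted p = 0.67). Ddit4 and Slc3a2 thus lay on opposite sides of 0, and neither passed the threshold. Over the whole list, every TIC library lay above the other group in 1 gene and below it in 4, at a background of 7.69% and 7.55%.

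In ER-associated degradation, which returns misfolded proteins to the cytosol, 0 of 25 tested genes passed the threshold and the median was -0.11. Sel1l, the scaffold of the HRD1 ubiquitin ligase, had 485 ± 18.0 CPM in non-CD24+CD90+ cells and 447 ± 31.8 CPM in TICs (SD, n = 3), with a log2 fold change of -0.12 (SE 0.27). Vcp, the ATPase that pulls proteins from the membrane, had 456, 527 and 529 CPM against 445, 375 and 235 CPM in TICs, lower without overlap (log2 fold change -0.52, SE 0.31, exactTest, adjusted p = 0.80). Its cofactor gene Ubxn4 had a log2 fold change of 0.52 (SE 0.32), and Selenok, a selenoprotein of the ER membrane, one of 0.81 (SE 0.41, exactTest, adjusted p = 0.64).

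Of 22 tested genes of the translocon, oligosaccharyltransferase and signal peptidase, 0 passed the threshold, 7 had a positive log2 fold change and the median was -0.11. Srpr, the receptor of the signal recognition particle, had 122 ± 31.6 CPM in non-CD24+CD90+ cells and 225 ± 37.5 CPM in TICs (SD, n = 3). The groups did not overlap, with a log2 fold change of 0.89 (SE 0.32, exactTest, adjusted p = 0.23). Spcs3, a signal peptidase subunit, had 38.7 ± 21.5 and 83.2 ± 20.5 CPM, also without overlap (exactTest, adjusted p = 0.49). Sec62, a translocon factor, had 1043 ± 215 and 1421 ± 456 CPM (SD, n = 3), and Rpn2, an oligosaccharyltransferase subunit, had 419 ± 58.1 and 456 ± 35.1 CPM. Both had overlapping groups.

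The ERSE gave a further list that rests on sequence alone, assembled after the values had been seen. Outside the 10 genes, 10 tested genes had an exact ERSE in their window, and 0 of them passed the adjusted threshold in exactTest. Of these, 4 (Creld2, Derl3, Dnajc3 and Syvn1) were also in the pathway lists and had been counted there. Their median log2 fold change was -0.14, and 2 had an unadjusted p-value below 0.05, against 7.85% of all genes tested. These were Dnajc3, described above, and Creld2, a secreted ER stress protein, both already counted among the 8 such pathway genes. Creld2 had 68.3, 77.6 and 84.2 CPM in non-CD24+CD90+ cells and 45.3, 44.0 and 17.0 CPM in TICs. Creld2 thus lay lower in all TIC libraries (log2 fold change -1.11, exactTest, adjusted p = 0.41), whereas Dnajc3 lay higher in all of them. Among the 10 genes, those with an exact ERSE had log2 fold changes from -0.33 to 0.54 and those without from -0.43 to 0.72, ranges that overlap.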

How the data were processed

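Libraries of TICs (3) and of non-CD24+CD90+ cells (3), grouped by their labels, were compared, and p-values measure the spread between these pooled libraries. The supplement of the study gives a total of 12 mice, so that pools of both groups may come from the same mice. The labels do not say so, and the test treats all libraries as independent. The authors trimmed reads with Trimmomatic (version 0.32), aligned them to GRCm38 with STAR (2.4.0), removed reads without a unique position with SAMtools (1.1) and deposited raw counts per Ensembl gene from HTSeq, without normalization. Genes with near-identical copies can therefore be undercounted. Annotation release and strand setting are not given in the sources used here. Symbols, coordinates and exonic lengths came from GENCODE M21, and 40254 of 41388 identifiers had a symbol; the others held 0.171% of counts.

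The test covered the 12192 genes that exceeded 1 CPM in 3 or more samples. As in the methods of the study, a CPM filter, exactTest of edgeR (version 4.0.16, R 4.3.3) and Benjamini-Hochberg adjustment over all genes tested were used, with the study's threshold of 0.1; TMM factors and common and tagwise dispersions were chosen here. CPM are TMM-normalized. Likeness used log2 CPM with a prior count of 2. Alternatives were the quasi-likelihood test, DESeq2 (1.42.0), other scalings, filters, dispersions and thresholds, and each sample left out. Scripts were tested on simulated counts. Named genes were the 10 genes and, from each list, called genes, the 2 with the highest mean CPM and the 2 with the smallest p-values; Ern1, Eif2ak3, Atf6, Creld2 and, among heat shock and barely detected genes, a few more were chosen after their values were seen. The genes and lists were chosen with earlier results of these data known.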

Additional observations from a re-analysis of the deposited data

How the results depend on the processing

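The count of 0 among the 10 genes was the same in all 13 alternative fits. The stricter threshold of 0.05 could not raise it. Of 130 recomputed log2 fold changes of these genes, 122 kept their direction and 8 reversed, and none passed the threshold. The 8 were close to 0. With 1 library left out, Hspa5 ranged from -0.33 to 0.071, the latter without the second non-CD24+CD90+ library, and Calr from -0.031 (without TIC replicate 2) to 0.14. Pdia3 ranged from -0.18 to 0.081 (without TIC replicate 1), and it was 0.013 without TIC replicate 3 and 0.034 and 0.067 without the first and the third non-CD24+CD90+ library. Atf4 ranged from -0.11 (without TIC replicate 3) to 0.21, and it was -0.0072 with library size alone. Among the pathway genes 1 gene, Fkbp10, was called in DESeq2, with RLE size factors and without TIC replicate 1, against 0 otherwise, so that leaving out 1 sample gave 0 to 1. Over all genes, 189 were called in exactTest, 50 in the quasi-likelihood test, 306 in DESeq2 (75.5% of them higher in TICs, against 87.8%), 112 without a filter, 116 at 0.05, and 68 to 314 with 1 sample left out. The cause of these differences was not tested. No scaling moved the median log2 fold change of all genes by more than 0.06. No paired analysis was possible because the sample labels carry no replicate number shared between the groups: replicates were numbered in accession order, which names a library and pairs none. Depth was lowest for Ddit3 and Pdia4, with 40 to 200 and 155 to 617 counts.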

Other observations

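Heat shock proteins outside the ER served as a comparison list, and 0 of 20 tested genes passed the adjusted threshold in exactTest, with 1 unadjusted p-value below 0.05 and a median log2 fold change of -0.15. Hsp90ab1, a constitutive cytosolic HSP90, had 8034, 6028 and 5963 CPM in non-CD24+CD90+ cells and 4806, 6110 and 6077 CPM in TICs. Its stress-responsive relative Hsp90aa1 had 1449, 657 and 557 CPM against 461, 1266 and 812 CPM. Hsph1, a nucleotide exchange factor of HSP70, was lower in every TIC library, with 122, 165 and 151 CPM against 114, 99.9 and 48.2 CPM (log2 fold change -0.74, SE 0.37, exactTest, adjusted p = 0.61). Hspe1, the mitochondrial co-chaperonin, also lay lower in every TIC library (log2 fold change -0.99, SE 0.51, exactTest, adjusted p = 0.68).

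The inducible HSP70 genes Hspa1a and Hspa1b varied widely within both groups. Hspa1a had 210, 122 and 39.3 CPM in non-CD24+CD90+ cells and 197, 242 and 25.6 CPM in TICs, and Hspa1b had 307, 165 and 53.6 CPM against 191, 180 and 46.4 CPM. Both groups overlapped in both genes. The genes are near-identical copies, so that removal of reads without a unique position can lower both. In the same libraries Calr spanned 1.30-fold.

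Of the 137 pathway genes 10 were not tested because of low counts: Cdnf, Ppib, Pdia2, Ero1lb, Uggt2, Clgn, Creb3l3, Chac1, Slc7a11 and Sec61g. Ppib, an abundant ER prolyl isomerase in most cells, had 0.29, 0.68 and 8.30 CPM in non-CD24+CD90+ cells and 0, 1.52 and 0.53 CPM in TICs. Hspa8, the constitutive cytosolic HSP70, had 4.99 to 10.1 CPM and 4.43 to 43.7 CPM. The part that the removal of reads without a unique position has in these low counts was not tested.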
